A study of Mus musculus with 2 samples.

Results

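Myocardin, serum response factor (SRF), 3 MEF2 factors and KLF4, the transcription factors that set smooth muscle gene expression, were followed in cultured embryonic mouse ureters. The genes were Myocd, Srf, Mef2a, Mef2c, Mef2d and Klf4. They were taken by gene name from the array annotation, which gave 11 probes among 39429. They are 6 of 22296 genes or unnamed features that had a probe above background, 29638 probes in all. The ureters came from wildtype NMRI mouse embryos of mixed sex at E13.75 (days after conception), dissected and kept on transwell membranes for 18 h. The medium held 10 µg/ml NOGGIN, an extracellular antagonist of bone morphogenetic proteins (BMPs), or no NOGGIN in the controls. Each of 2 two-colour arrays took 1 control and 1 NOGGIN sample, so each condition had 2 samples. By the labels the control was red and NOGGIN green on array 1, and the dyes were exchanged on array 2. Samples carry numbers in the labels, with no word on separate litters, so all p-values measure only the spread between these samples.

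Myocardin has no DNA contact of its own. It binds SRF and turns it into a strong activator of the genes of the contractile apparatus, through a DNA element called the CArG box. The myocardin-related factors MRTF-A and MRTF-B use SRF in a similar way in response to actin dynamics. MEF2 factors bind a different AT-rich element and work in muscle lineages together with other regulators, while KLF4 is known in smooth muscle cells as a repressor of contractile genes. In the developing ureter, smooth muscle arises from the mesenchyme around the epithelial tube, and this differentiation is known to depend on BMP signalling.

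The probes behind the results are shown first because the genes differ in how they were sampled. Myocd and Mef2c each had a single 60-base probe. Probe coordinates are those of the files, on mouse build mm9, without its exon and UTR annotation, which was not used here. The Myocd probe lies at chr11:64991930-64991989 on the minus strand. The capitals mark a stop triplet at base 41 of the probe, with 17 bases after it, which is the 1 such triplet in that frame of the probe.
Myocd: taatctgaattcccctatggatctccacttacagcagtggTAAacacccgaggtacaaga
The Mef2c probe has 60 bases but covers 2238 bases of the genome, chr13:83772788-83775025 on the plus strand, so it joins separate genomic blocks.
Mef2c: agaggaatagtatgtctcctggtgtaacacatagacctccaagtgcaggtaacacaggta

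Klf4 also had 1 probe, at chr4:55540167-55540226 on the minus strand, of which the last 30 bases (bases 31 to 60) are given. Of the 3 Mef2a probes, numbered by brightness, probes 1 and 3 are given in the same way because their ratios differed. Their positions on chromosome 7, minus strand, are 74376573 to 74376632 for probe 1 and 74378751 to 74378810 for probe 3. Probe 3 has the lowest GC content of the 11 probes, 21.7%.
Klf4: caaatgtgtttttctatatagttccttgcc
Mef2a probe 1: gtttcaccatttcctttcaactgtaaagac
Mef2a probe 3: actttttagttttattttaagaggggagaa

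Signed values are log2 ratios, with the channel labelled NOGGIN divided by the one labelled control, given with the standard deviation (SD) over the 2 arrays. This direction opposes the titles read together with the authors' deposited table, whose values run as control over NOGGIN by the dye labels. Across 29638 probes its correlation with the red to green ratio was 0.840 for array 1 and -0.885 for array 2. Which reading is right is not settled by the files: if the dye labels were exchanged, every sign below would turn and every size would stay. That Myocd and the median of the contractile genes had opposite signs holds under either reading, while the direction of their difference turns with the rest. By the dye labels all 7 direct BMP target genes measured were higher with NOGGIN (median 1.76), the opposite of what a BMP antagonist is known to do to them, and this bears on the choice. The number of arrays limits the precision throughout.

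The 2 arrays shared 1 slide and 1 scan. Between 65.3% and 76.9% of probes were well above background in a channel, with the higher share in the green channel of both arrays. No probe spot was saturated. All 6 genes were well above background in all 4 samples by their brightest probe. No gene of the 22296 reached an adjusted p of 0.05 with limma (Benjamini-Hochberg), while 1353 (6.07%) had an unadjusted p under 0.05 and 143 (0.641%) passed with limma's trend and robust variance. An exact permutation test over 2 arrays cannot give a two-sided p below 0.5. Changes were therefore described by a fold rule, at least 1.5-fold (a log2 ratio of 0.58) in the same direction on both arrays.

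Myocd and Klf4 were the regulators that met the fold rule, and they lay on opposite sides. Over all genes the rule took 488 (2.19%), of which 210 were higher (0.942%) and 278 lower (1.25%) in the channel labelled NOGGIN. Of the 6 regulators 1 was higher, 1 was lower and 4 were neither. At the level of probes, 569 of 29638 met the rule (1.92%), among them 2 of the 11 probes of these genes. Srf, Mef2a, Mef2c and Mef2d did not meet it by any probe.

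Myocd, the SRF coactivator that drives smooth muscle differentiation, had a log2 intensity of 7.80 in the control and 8.97 in the NOGGIN channel of array 1, and of 7.73 and 8.67 on array 2. Both samples labelled NOGGIN were above both labelled control, and the groups did not overlap. That needs a ratio above 0 on both arrays, which 20.4% of all genes had. The share of all genes with full separation was not computed, here or for Klf4 below. The log2 ratios were 1.17 and 0.94, a mean of 1.05 ± 0.16 (SD, n = 2) or 2.07-fold. The 4 spots of the probe ranged from 1.10 to 1.30 on array 1 and from 0.78 to 1.25 on array 2, so every spot lay above the fold rule. With limma the unadjusted p was 0.00112 and the adjusted p 0.158 over all genes, and only 0.641% of genes had a higher mean ratio. The size of the ratio varied with the processing. The mean was 1.13 without background correction and 1.39 on the scanner's processed signals. The authors' deposited table gave a signed fold of -2.58 on array 1 and -2.51 on array 2 for this probe.

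Klf4, a zinc finger factor, gave log2 intensities of 13.96 in the control and 13.32 in the NOGGIN channel of array 1, and of 14.03 and 13.24 on array 2. The labelled NOGGIN samples were the 2 lowest, with no overlap, which needs a ratio below 0 on both arrays, as 23.3% of all genes had. The log2 ratios were -0.64 and -0.79, a mean of -0.72 ± 0.10 (SD, n = 2), or 1.64-fold lower in the channel labelled NOGGIN. Array 1 alone gave 1.56-fold, just past the rule. The spots ranged from -0.78 to -0.57 and from -1.07 to -0.43, so single spots fell short of the rule on both arrays. The limma unadjusted p was 0.00583 and the adjusted p 0.309 over all genes. A lower mean ratio was found for 1.42% of genes. Klf4 no longer met the rule on the scanner's processed signals, where the log2 ratios were -0.56 and -0.78, or with median centring without loess, where they were -0.36 and -1.17. In the authors' deposited table the signed folds were 1.52 and 1.70.

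**Figure D1:**
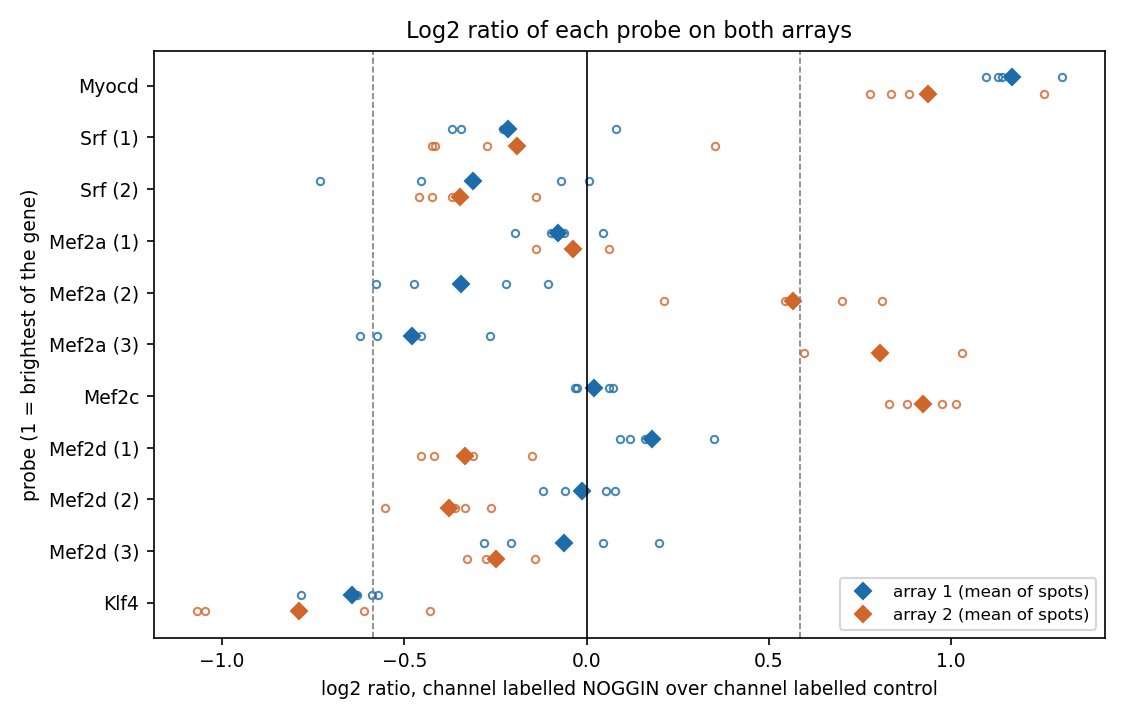
Log2 ratio (horizontal, labelled NOGGIN over labelled control) for the 11 probes (vertical), numbered by brightness within a gene. Diamonds are array means over spots, open circles single spots, and dashed lines the 1.5-fold rule. Myocd lies past the right line on both arrays and Klf4 past the left line, while Mef2a probes 2 and 3 and Mef2c differ between the arrays.

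Srf, the DNA-binding partner of myocardin, had 2 probes that lay slightly below 0 on both arrays. The brighter probe (chr17:46685306-46685365, minus strand) had log2 intensities of 12.20 in the control and 11.99 in the NOGGIN channel of array 1, and of 12.37 and 12.18 on array 2. The lower control lay only just above the higher NOGGIN sample. Its log2 ratios were -0.22 and -0.19 (mean -0.20 ± 0.02, SD, n = 2), with a limma adjusted p of 1.00. The other probe had log2 intensities of 11.73 and 11.41 on array 1 and of 11.92 and 11.57 on array 2, in the same order, and gave -0.31 and -0.35 (mean -0.33 ± 0.02). The spots of the brighter probe ranged from -0.37 to 0.08 on array 1 and from -0.42 to 0.35 on array 2, which is wider than the shift itself.

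The brightest Mef2a probe gave log2 intensities of 12.98 in the control and 12.91 in the NOGGIN channel of array 1, and of 12.82 and 12.78 on array 2. These 4 values differed more between arrays than between conditions, with log2 ratios of -0.08 and -0.04 (mean -0.06 ± 0.03, SD, n = 2). Probe 2 had 12.23 and 11.89 on array 1 and 12.09 and 12.66 on array 2, or log2 ratios of -0.34 and 0.57. Probe 3, of low GC content, had 9.60 and 9.12 on array 1 and 8.89 and 9.69 on array 2, or log2 ratios of -0.48 and 0.81. For probe 2 red exceeded green by 0.34 and 0.57 on the log2 scale, and for probe 3 by 0.48 and 0.81. Their ratios thus followed the dye rather than the sample on both arrays. Neither gives a difference between conditions larger than the spread of the arrays.

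Mef2c, a MEF2 factor of muscle, endothelial and neural lineages, was read differently by the 2 arrays. Its log2 intensity was 10.05 in the control and 10.07 in the NOGGIN channel of array 1, and 9.45 and 10.38 on array 2. The control of array 2 was the lowest of the 4 samples and its NOGGIN partner the highest. The log2 ratios of 0.02 and 0.92 gave a mean of 0.47 ± 0.64 (SD, n = 2), so the spread exceeded the mean. The spots were tight within each array, from -0.03 to 0.07 and from 0.83 to 1.01. The limma unadjusted p was 0.116.

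Mef2d had 3 probes, and none met the fold rule. The brightest (chr3:87975777-87975836, plus strand) had log2 intensities of 12.41 in the control and 12.59 in the NOGGIN channel of array 1, and of 12.62 and 12.29 on array 2. The conditions overlapped, with log2 ratios of 0.18 and -0.33 (mean -0.08 ± 0.36, SD, n = 2). Green was the brighter dye on both arrays, by 0.18 and 0.33. The other probes gave -0.01 and -0.38, and -0.06 and -0.25. The dimmest of them was not well above background in more than 0.5 of its spots in the red channel of either array.

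**Figure D2:**
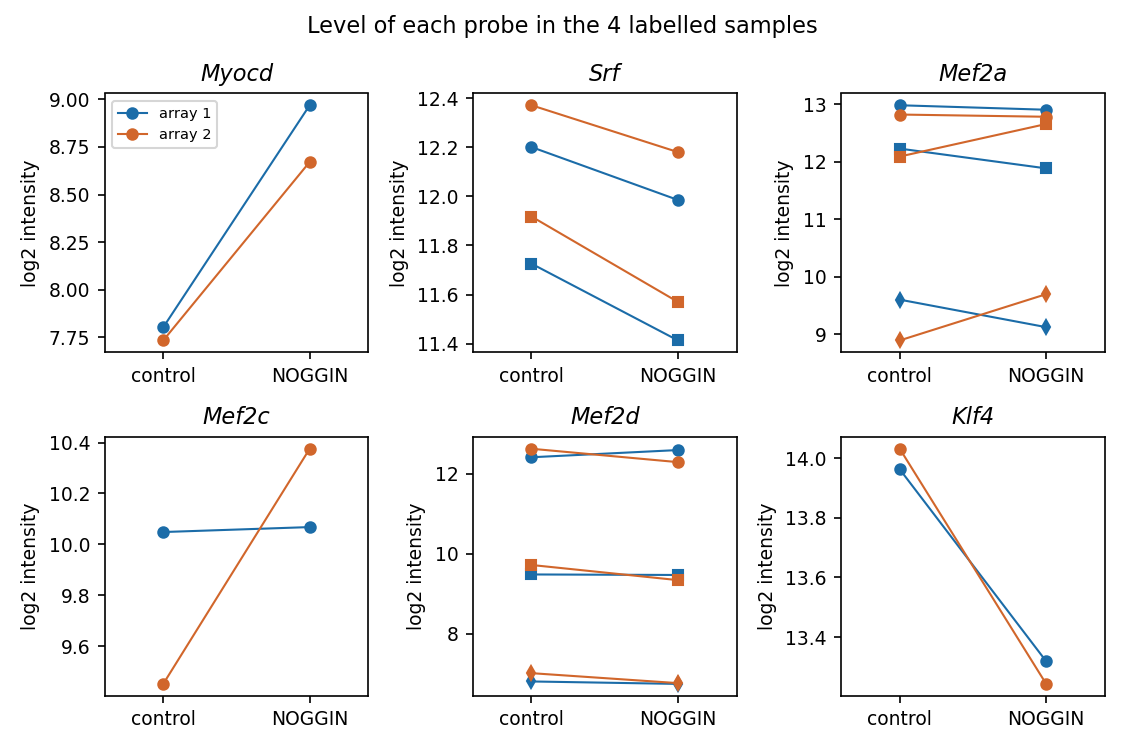
Normalized log2 intensity of each probe in the 4 samples, with control and NOGGIN as labelled. A line joins the 2 samples of 1 array, marker shapes separate the probes of a gene, and the vertical axes differ between panels. Myocd goes up and Klf4 down on both arrays, while the Mef2c lines start from different control levels of 10.05 and 9.45.

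Most contractile genes that myocardin and SRF are known to activate lay on the opposite side of 0 from Myocd, few of them past the fold rule. Of a list of 24 such genes, 5 were lower by the fold rule, 0 were higher and 19 were neither, against 1.25% lower and 0.942% higher over all genes. On both arrays 17 of the 24 (70.8%) lay below 0, against 23.3% of all genes. Itga8 and Mylk, named after their values were seen, were the 2 that lay above 0 on both, with means of 0.26 and 0.18. A second, dimmer Mylk probe gave 0.10 and -0.09. The list's median log2 ratio was -0.38 (-0.48 on array 1 and -0.37 on array 2), beside -0.01 over all genes. Unadjusted limma p-values under 0.05 were found for 11 of the 24, all lower, and adjusted p-values under 0.05 for 0. This list and those below were chosen with earlier results of these data known. Their shares beside all genes therefore describe the lists and do not test them. In whole tissue, fewer smooth muscle cells and less RNA per cell cannot be told apart.

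Tagln, encoding transgelin (SM22), an actin-binding protein of smooth muscle, went from log2 intensities of 16.22 and 16.23 in the labelled controls to 15.08 and 15.42 in the labelled NOGGIN samples. Its log2 ratios were -1.14 and -0.81 (mean -0.98 ± 0.23, SD, n = 2; limma adjusted p 0.191). Cnn1, the smooth muscle calponin, went from 14.16 and 14.04 to 13.24 and 13.35, a mean of -0.80 ± 0.16. Myl9, the regulatory light chain of smooth muscle myosin, went from 16.55 and 16.72 to 15.81 and 15.90 (mean -0.78 ± 0.06). For these 3 genes every labelled NOGGIN sample was below every labelled control. That needs a ratio below 0 on both arrays, which 23.3% of all genes had. The share of all genes with full separation is not given.

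Actg2, the enteric smooth muscle actin, gave log2 ratios of -0.64 and -0.66 (mean -0.65 ± 0.02, SD, n = 2). Synpo2, which encodes an actin-bundling protein of Z-disc and dense body structures, had the lowest mean of the list by its brightest probe, with -1.62 and -0.90 (mean -1.26 ± 0.51). Its other probes gave means of 0.01 and -0.12, so that call rests on 1 of its 3 probes. Over all 39 kept probes of the 24 genes, 5 met the fold rule as lower, 0 as higher, and the median was -0.34.

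The other contractile genes chosen by name did not meet the rule on both arrays. Acta2, the smooth muscle alpha-actin, gave -1.39 on array 1 and -0.18 on array 2, a mean of -0.79 ± 0.86 (SD, n = 2) whose spread exceeded it. Des, the intermediate filament protein desmin, gave -0.48 and -0.77 (mean -0.63 ± 0.20). Myh11, the smooth muscle myosin heavy chain, gave -0.74 and -0.41 (mean -0.57 ± 0.23). Smtn, encoding smoothelin, gave 0.10 and -0.32 (mean -0.11 ± 0.30) by its brightest probe, and -0.30 and -0.50 by its other probe.

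Set against the median of the contractile list on the same array, Myocd stood 1.65 higher on array 1 and 1.31 higher on array 2 on the log2 scale, a mean difference of 1.48 ± 0.24 (SD, n = 2). All 24 contractile genes had a lower ratio than Myocd on both arrays. This difference was 0.22 ± 0.06 for Srf, 0.37 ± 0.05 for Mef2a, 0.35 ± 0.44 for Mef2d and 0.90 ± 0.56 for Mef2c. Klf4 was the 1 regulator below the contractile median on both arrays, by -0.16 and -0.42 (mean -0.29 ± 0.18). The gene of the repressor KLF4 thus shared its sign with most contractile genes, and that of the coactivator myocardin had the other sign. Which cells of the whole ureter gave the Klf4 signal was not tested.

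**Figure D3:**
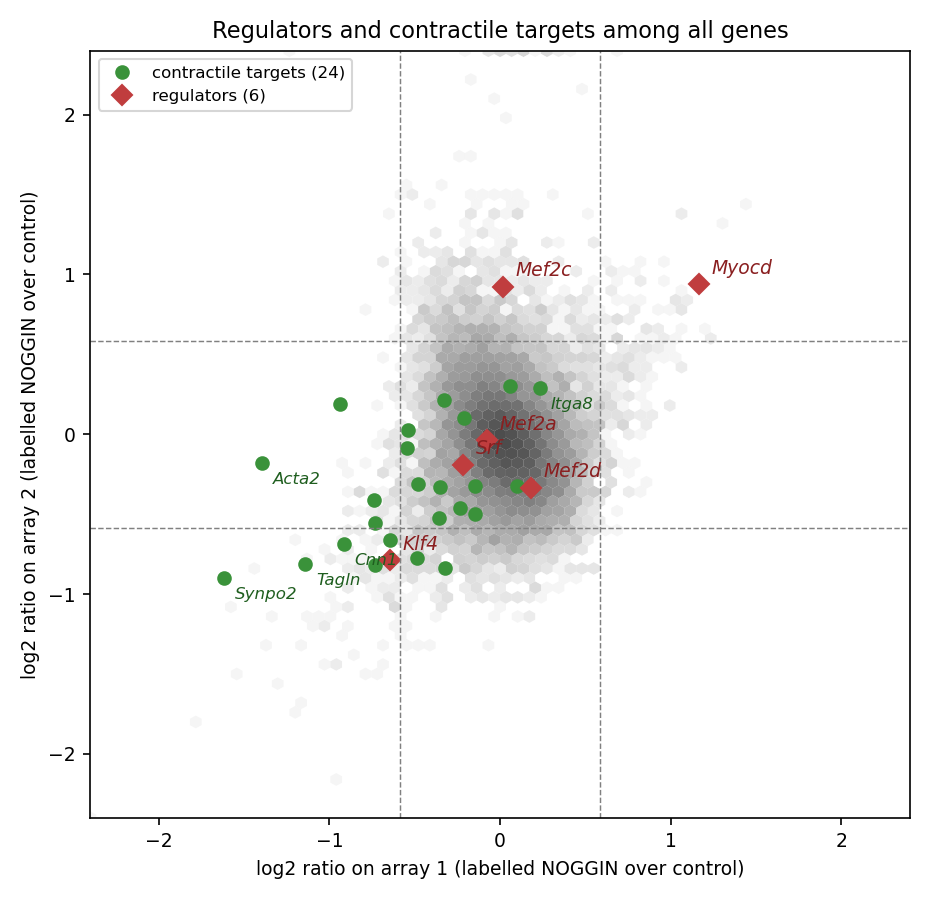
Log2 ratio on array 1 (horizontal) against array 2 (vertical), labelled NOGGIN over labelled control. Grey hexagons show the density of all 22296 genes on a log scale, with genes beyond the axes drawn at the edge. Green circles are the 24 contractile genes, red diamonds the 6 regulators, and dashed lines the 1.5-fold rule. Myocd lies in the upper right corner with ratios of 1.17 and 0.94, and Klf4 among the contractile genes at the lower left.

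SRF is known to bind CArG boxes in its own promoter as well as in contractile genes. The boxes were looked for by the name of the motif, on both strands, in RefSeq promoter windows of build GRCm38.p6 (250 bases before to 50 after the start). A box was CC, then 6 bases of A or T, then GG, with no mismatch allowed. A box was present in 488 of 27025 genes (1.81%) and a MEF2 site in 1001 (3.70%). Windows were held for 5 of the 6 regulators (not for Myocd) and for 20 of the 24 contractile genes. Of the 20, 2 held a CArG box, Myl9 and Vcl, and 1 held a MEF2 site, Synpo2. Among the regulators, Srf held 2 boxes, starting at positions -82 and -62 from the start, and Mef2a held a MEF2 site across the start. Of 12 cytoskeletal SRF target genes with a window, 4 held a CArG box. A match is only a string of letters in this window. The lack of one says nothing about binding elsewhere or at a sequence with a mismatch. The Acta2 window, for example, holds ccctatatgg, which is 1 base off the pattern and was not counted. The 250 bases before the start are shown for Myl9, which held a box and met the fold rule, and for Srf, added after its matches were seen. They are chr2:156775214-156775463 on the plus strand and chr17:46556163-46556412 on the minus strand, with CArG boxes in capitals.
Myl9 upstream: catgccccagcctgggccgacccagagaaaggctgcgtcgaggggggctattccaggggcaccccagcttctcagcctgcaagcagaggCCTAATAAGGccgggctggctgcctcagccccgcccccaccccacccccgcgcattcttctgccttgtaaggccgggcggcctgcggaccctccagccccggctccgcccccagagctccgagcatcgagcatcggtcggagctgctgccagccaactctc
Srf upstream: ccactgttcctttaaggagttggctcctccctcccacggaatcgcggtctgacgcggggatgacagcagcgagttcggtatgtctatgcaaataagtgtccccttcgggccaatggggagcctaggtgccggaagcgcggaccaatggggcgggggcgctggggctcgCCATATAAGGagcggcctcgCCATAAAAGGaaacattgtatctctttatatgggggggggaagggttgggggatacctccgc
The Myl9 box starts at position -161. Myl9 and Srf both lay below 0 on both arrays, at means of -0.78 and -0.20.

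Other lists of SRF targets had medians nearer to 0 than the contractile genes, for the cytoskeletal list only slightly so on array 2 (-0.35 against -0.37). Of 15 cytoskeletal genes activated through MRTF and SRF, 1 was lower by the fold rule and 0 were higher, with a median of -0.31. Over all genes the rule took 1.25% as lower and 0.942% as higher. On both arrays 8 of the 15 lay below 0 and 0 above. The gene past the rule was Ccn1 (Cyr61), a secreted matrix protein, with log2 ratios of -1.29 and -1.52 (mean -1.40 ± 0.16, SD, n = 2). Of 10 immediate early genes, which SRF activates with ternary complex factors in response to growth signals, 9 were measured and 0 met the rule, with a median of -0.10. Lists of MEF2 target genes gave 8 measured of 11, with 1 lower, 0 higher and a median of -0.29 (-0.07 on array 1 and -0.50 on array 2). Below 0 on both arrays lay 6 of the 8, against 23.3% of all genes. The lower gene was Myog, the skeletal muscle factor myogenin, at -1.57 and -1.48 (mean -1.53 ± 0.06).

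The cofactors of SRF and MEF2 mostly did not meet the rule. The list held 18 genes, with MRTFs, ternary complex factors, class II histone deacetylases, TEAD and VGLL proteins among them. Of these, 1 was lower and 0 were higher, against 1.25% and 0.942% of all genes, with a median of -0.15. The MRTF genes lay close to 0, Mrtfa (Mkl1) at -0.08 and -0.24 and Mrtfb (Mkl2) at -0.12 and -0.13. The lower gene, Vgll2, a TEAD cofactor of skeletal muscle, gave -0.95 and -2.18 (mean -1.56 ± 0.87, SD, n = 2). It was well above background in only 0.25 of its spots in the NOGGIN sample of array 2. Of 16 other Krüppel-like factors, 1 was lower, Klf14, at -0.59 and -1.07, 0 were higher, and the median was -0.04.

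Among regulators of ureteric mesenchyme and smooth muscle, the genes past the fold rule had the sign of Myocd. Of 12, 3 were higher by the fold rule and 0 lower, against 0.942% and 1.25% of all genes, with a median of 0.33. Above 0 on both arrays lay 9 of the 12, against 20.4% of all genes. Msx2, a homeobox factor and BMP response gene, gave 1.30 and 1.32 (mean 1.31 ± 0.02, SD, n = 2). Sox9, an SRY-box factor of the mesenchyme, gave 1.20 and 1.21 (mean 1.21 ± 0.01). Tbx18, the T-box factor that marks ureteric mesenchyme, gave 0.88 and 0.65 (mean 0.77 ± 0.17). Tshz3, a zinc finger factor known to be needed for Myocd expression in the ureter, gave -0.01 and -0.65, with a spread (SD 0.45) above its mean of -0.33.

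Direct BMP targets served as the reference for the treatment. All 7 were higher in the channel labelled NOGGIN by the fold rule, against 0.942% of all genes, with a median of 1.76. Id1, an inhibitor of basic helix-loop-helix factors, gave 2.21 and 2.08 (mean 2.14 ± 0.09, SD, n = 2). Id2 (mean 2.59 ± 0.26), Smad9 (2.16 ± 0.28) and Id4 (1.76 ± 0.32) were the others with the largest ratios. Myocd therefore shared its sign with the BMP targets, and the 5 contractile genes past the rule had the other sign. In the authors' deposited table Id1 had signed folds of -4.65 and -4.53, the same sign as Myocd there.

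**Figure D4:**
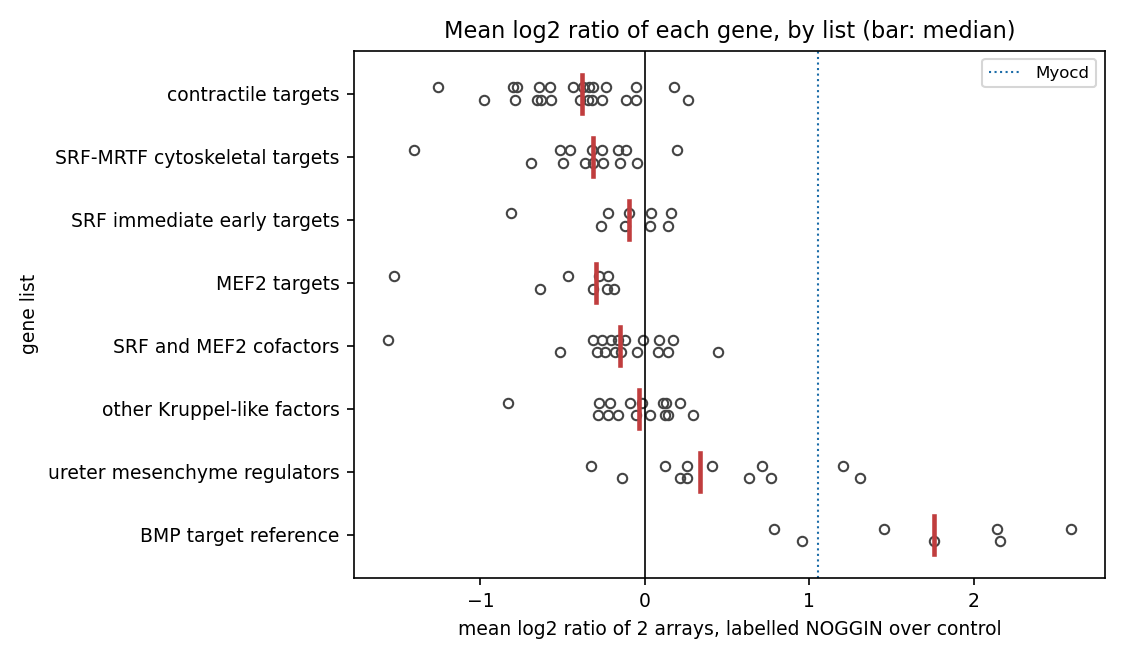
Mean log2 ratio over 2 arrays (horizontal, labelled NOGGIN over labelled control) for each gene of 8 lists. Open circles are genes, red bars list medians, and the dotted line is Myocd at 1.05. Contractile genes have a median of -0.38, ureteric mesenchyme regulators of 0.33 and BMP targets of 1.76.

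The labelled tissue and the other cell types it could hold were read from marker lists. All 15 urothelial markers were well above background in all 4 samples, as were all 9 mesenchymal, 12 endothelial, 10 macrophage and 8 neuronal markers. Over all genes the fold rule took 0.942% as higher and 1.25% as lower. By the fold rule 1 urothelial gene was higher (Upk3b), 1 mesenchymal gene (Tbx18), and 0 of the endothelial, macrophage or neuronal genes in either direction. Medians were 0.08, -0.14, 0.20, -0.12 and 0.11 in that order. The log2 of the summed level of urothelial markers was 18.05 and 18.22 in the labelled controls and 18.35 and 18.20 in the labelled NOGGIN samples. It was 19.42 and 19.35 against 18.99 and 19.04 for mesenchymal markers, 16.22 and 16.53 against 16.59 and 16.64 for endothelial ones, 13.81 and 14.21 against 13.73 and 14.40 for macrophages, and 15.12 and 14.80 against 15.33 and 15.01 for neurons. For the contractile list it was 19.55 and 19.47 against 18.91 and 19.09. The mesenchymal sum was lower in both labelled NOGGIN samples, and its part in the regulators' values was not tested. Bright genes weigh most in such a sum, and Col3a1, the brightest of these markers in the controls, had a mean of -0.80. Of the 9 markers, 4 lay below 0 on both arrays and 1, Tbx18, above, so the sum does not stand for the whole list.

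Myog is also on the list of skeletal and cardiac muscle markers. Of these 15 genes 11 were measured and 9 were well above background in all 4 samples. Ckm, Myf5, Myod1 and Pax7, which define skeletal muscle and its precursors, had no probe kept. Of the 11, 3 were lower by the fold rule, against 1.25% of all genes. These were Myh3 (mean -2.46 ± 0.94, SD, n = 2), Tnnt2 (-1.63 ± 0.03) and Myog, and the list median was -0.25. The log2 of the summed level of the 11 was 14.86 and 15.03 in the labelled controls and 14.85 and 15.12 in the labelled NOGGIN samples. Bright genes weigh most in such a sum. The 2 brightest, the actin genes Actc1 (mean 0.69) and Acta1 (mean -0.94), had opposite signs. The sum therefore says little about Myog, Myh3 and Tnnt2. MEF2 factors and myocardin are also known regulators in these muscle types, and the part of such cells in the values was not tested.

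The genes with the pair of ratios nearest to a regulator's were named by Euclidean distance over the 2 arrays among 22295 other genes and features. For Myocd these were Gprin3 (1.16 and 0.96), Micalcl (1.16 and 0.87), S100b (1.14 and 1.00), Ptger2 (1.09 and 0.88) and Otop2 (1.12 and 0.86), and 34 genes or features lay within a distance of 0.25. For Klf4 they were Icosl (-0.61 and -0.78), Samd5 (-0.67 and -0.81), Sult1e1 (-0.60 and -0.80), Il17rd (-0.60 and -0.79) and Dock5 (-0.65 and -0.84), with 156 within 0.25.

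Under other processing Myocd kept its sign, with mean log2 ratios from 0.94 to 1.39 over 11 values that include the single arrays, and limma adjusted p-values from 0.086 to 0.693 in the fit over probes. Klf4 had means from -0.79 to -0.64 and adjusted p-values from 0.221 to 1.00, and lost its call under the 2 settings named above. At a 2-fold rule with the reported processing, 0 of the 6 regulators and 0 of the 24 contractile genes were called. This depends on the processing. Myocd was past 2-fold on both arrays on the scanner's processed signals (1.48 and 1.30) and with the authors' values (1.37 and 1.33).

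**Figure D5:**
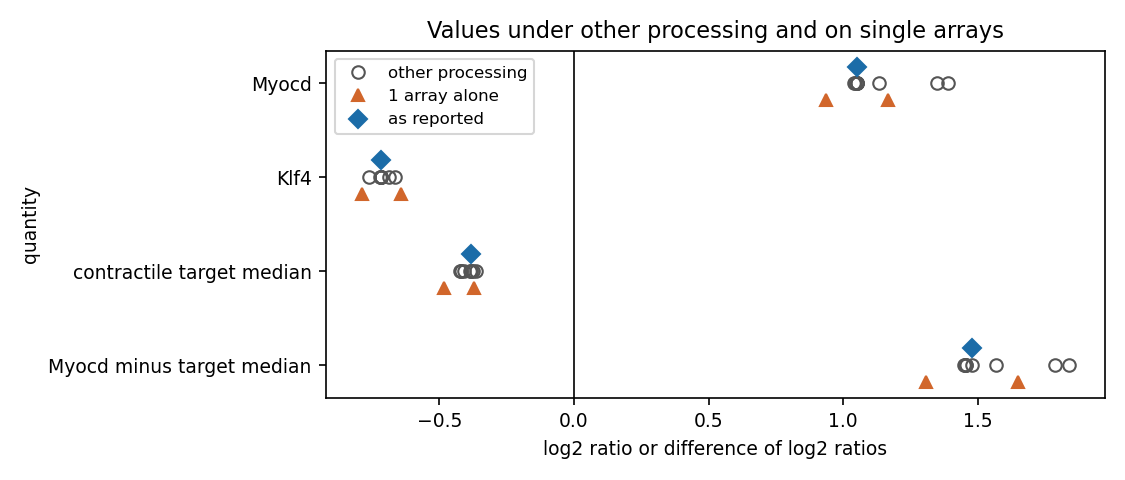
Log2 ratio of Myocd and Klf4, median of the contractile genes and the difference of Myocd from that median (horizontal, log2 scale). Blue diamonds are the values reported, open circles other processing and orange triangles single arrays. Myocd stays between 0.94 and 1.39 and its difference from the contractile median between 1.31 and 1.84.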

How the data were processed

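Two-colour array data of 4 ureter RNA samples were used. Scanner files deposited by the authors hold unnormalized intensity values per spot (mean signal and local background), per the file headers, made with version 10.7.3.1 of Agilent Feature Extraction as the submitters' processing notes list it. The log10 ratio deposited in the same files is red over green of processed signals, by column name, and served to read the direction of the authors' table. The authors also deposited a signed score per probe, which the values show to be a linear fold change, its processing being not given in the sources used here. Background was corrected by normexp (offset 50) and arrays were normalized by loess (limma 3.58.1, R 4.3.3). Control and outlier spots were left out and the 4 spots of a probe averaged. A probe was kept if, on each array, more than 0.5 of its spots exceeded background in 1 channel or both, and a gene took its brightest kept probe. Names were updated through RefSeq accessions (28739 of 39429 probes matched). Levels per channel were additionally scaled between arrays (Aquantile). limma's lmFit and eBayes were fitted to all 22296 genes with the dyes turned to one direction, after a test on simulated data. The regulators, gene lists and tests were chosen with earlier results of these data known. Named were all 6 regulators, 7 set contractile genes (Acta2, Tagln, Myh11, Cnn1, Actg2, Des, Smtn) and those past the fold rule, up to 4 past the rule in each other list, Mkl1, Mkl2, Tshz3, Sox9, Tbx18 and Id1 always, the 5 nearest genes of each regulator past the rule, and promoters of Myocd and of contractile genes that held a CArG box and met the rule. Alternatives covered background, normalization, dim probes, outlier spots, probe choice, variance model, fold rule, the authors' values and single arrays. The sequence of 1 Mef2a probe is not reported here.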

Additional observations from a re-analysis of the deposited data

How the results depend on the processing

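Under other processing or on single arrays, 118 values of the 11 regulator probes kept their sign or moved within the spread of the arrays. Another 2 turned beyond that spread. Sign changes within the spread were seen on array 1 alone for the brightest Mef2d probe (0.18) and Mef2a probes 2 and 3 (-0.34 and -0.48). The brightest Mef2a probe turned from -0.06 to 0.023 on the scanner's processed signals and to 0.030 with the authors' values. The number of regulators past the rule was 2 by probe and by gene. It was 1 on processed signals, 1 with median centring without loess, and 0 at 2-fold with the reported processing. Klf4 was the call lost under the first pair of settings, while Myocd kept its call there. The 5 contractile genes called lower became 0 at 2-fold with the reported processing. The difference of Myocd from the contractile median, 1.48, was 1.84 on processed signals and 1.79 with the authors' values. With 1 array left out, regulators past the rule ranged from 2 to 4 by probe and from 2 to 3 by gene, contractile genes called lower from 7 to 9, their median from -0.48 to -0.37, and the difference from 1.31 to 1.65. Median centring without loess left the median of all probes at 0.20 on array 1 and -0.24 on array 2, against 0.02 and -0.03 with loess, in opposite directions that cancel in the mean. No separate paired analysis was possible because each ratio already pairs the 2 samples of 1 array. Only 2 arrays, 1 slide and an unsettled dye direction limit all values, and dim probes have little signal over background.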

Other observations

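The 6 actin genes did not move together, and were set side by side after their values were seen. Actins are near-identical as proteins, and whether their probes share signal was not tested. Actg2 was lower by the fold rule, with log2 ratios of -0.64 and -0.66. Actc1, the cardiac alpha-actin that also appears early in other muscle, lay on the side of Myocd at 0.82 and 0.56 (mean 0.69 ± 0.18, SD, n = 2), just short of the rule on array 2. Acta1, the skeletal alpha-actin, resembled Acta2 in being low on array 1 alone, at -1.52 and -0.37 beside -1.39 and -0.18. The cytoplasmic actins Actb (-0.57 and 0.25) and Actg1 (-0.25 and 0.64) changed sign between the arrays. Red was the brighter dye for both genes on both arrays, so these ratios followed the dye rather than the sample. The 5 Actg1 probes had means from -0.19 to 0.19.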
